A study of Mus musculus with 12 samples.

Results

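Bach1 and 9 genes of haem breakdown, iron storage and antioxidant defence were described in mouse embryonic stem cells: Nfe2l2, Hmox1, Fth1, Ftl1, Nqo1, Gclm, Gclc, Txnrd1 and Srxn1. They are 10 of the 53819 gene symbols in the count table and were found there by symbol. Bach1 was picked because it rose with budesonide in these libraries, and the other 9 because they are known targets or partners of Bach1 or Nrf2. All 10 passed the filter on low counts, as did 13852 genes in all.

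The study counted polyadenylated RNA with a 3′ end kit in 12 libraries of E14, a standard mouse embryonic stem cell line grown in 2 dimensions. Of these, 3 libraries came from cells that received both compounds, proline and budesonide, over 72 h, 3 from cells that received budesonide over 72 h, 3 from cells that received proline over 72 h, and 3 from untreated control cells. Budesonide is a synthetic glucocorticoid, and L-proline is an amino acid known to move mouse stem cells out of the naive state. The labels give no doses and no vehicle for the control, and they do not say whether the replicates of a group are independent cultures. The p-values therefore rest on library-to-library spread that may be technical only.

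Bach1 is a repressor of the basic leucine zipper class that pairs with small Maf proteins and sits on antioxidant response elements. Haem binds Bach1 and leads to its release from DNA, its export from the nucleus and its breakdown, which frees haem oxygenase and ferritin genes. Nrf2, the product of Nfe2l2, is an activator that uses the same partners and elements and is held down by Keap1 until oxidants or electrophiles disable Keap1. Both proteins are controlled largely after translation, which RNA counts do not measure.

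Library totals ran from 5.30 to 15.9 M counts, so 1 count was worth 0.0654 to 0.193 CPM (counts scaled to a common library size by TMM). Budesonide 3 and control 3 stood apart with 8.43% and 6.57% of tested genes at 0, where the other 10 libraries ranged over 1.39% to 5.77%, and where leaving both out ended a call printed here, that is said beside it. The ribosomal RNA Rn18s took 3.11% to 5.90% of the counts with both compounds, 2.28% to 6.70% with budesonide, 2.36% to 3.39% with proline and 2.21% to 2.77% in control. Mitochondrial genes took 5.51% to 5.79% with proline and 7.31% to 8.03% in the other 9 libraries. Among the budesonide libraries, budesonide 3 had the highest level of Bach1, Nfe2l2, Ftl1 and Nqo1 and the lowest of the other 6 genes. The 8 markers of embryonic stem cells were all present, at a summed 2348 to 3493 CPM per library, while Pou5f1 reached at most 30.3 CPM in a group mean. Of these 8, the naive state genes averaged lower with proline than in control. The means were 118 against 376 CPM for Esrrb, 55.2 against 141 CPM for Zfp42 and 111 against 217 CPM for Nanog. Sox2 (458 against 526 CPM) and Dppa5a (398 against 494 CPM) were lower as well. Tdgf1 (965 against 833 CPM), Utf1 (675 against 533 CPM) and, slightly, Pou5f1 (30.3 against 29.8 CPM) were higher with proline. The 8 extraembryonic endoderm markers, all with counts in each group, summed to 16.9 to 24.8 CPM with both compounds, 5.40 to 17.7 CPM with budesonide, 25.9 to 28.9 CPM with proline and 9.72 to 14.1 CPM in control. The part of these markers and of the mitochondrial share in the changes with proline was not tested. The 8 blood and macrophage markers summed to at most 23.3 CPM, with Hbb-bt and Adgre1 among those at 0 throughout. Cd68 gave most of that sum, at means of 14.5 CPM with both compounds, 7.49 CPM with budesonide, 14.2 CPM with proline and 19.3 CPM in control. Fewer cells of a type and less RNA per cell cannot be told apart in such bulk libraries.

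Sequences before the gene starts are shown because the 10 genes were grouped by proteins that bind such elements. RefSeq windows (build GRCm38.p6, while the counts use GRCm39) were found for 8 of the 10 genes, not for Hmox1 or Gclc, and the 250 bases before each start were searched on both strands. The motif TGANTCAGC, bound by Bach1 or Nrf2 with a small Maf, was found before Srxn1 alone among these windows, and 1.02% of all 32851 windows hold it. The antioxidant response core TGACNNNGC, which can overlap it, was found before Nfe2l2, Gclm and 1 of 3 starts of Txnrd1, against 10.2% of all windows. The glucocorticoid receptor palindrome, GNACA and TGTNC with NNN between them, was in none of them and in 0.387% of all windows. Each line below is read 5′ to 3′ on the gene's strand as RefSeq gives it, with the match in capitals. For Nfe2l2 alone of these, the end of the RefSeq window was not found in a GENCODE M21 transcript of the gene, so its start is less certain. The Bach1 and Nqo1 lines show the bases just before the start of the 2 genes that lead the results, and hold no match:
Srxn1, chr2:152105449-152105517, plus strand: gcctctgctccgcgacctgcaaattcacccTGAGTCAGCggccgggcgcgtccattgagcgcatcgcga
Nfe2l2, chr2:75704865-75704913, minus strand: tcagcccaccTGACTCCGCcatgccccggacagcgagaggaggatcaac
Gclm, chr3:122245393-122245461, plus strand: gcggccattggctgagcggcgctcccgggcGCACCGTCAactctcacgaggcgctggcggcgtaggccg
Txnrd1, chr10:82859084-82859152, plus strand: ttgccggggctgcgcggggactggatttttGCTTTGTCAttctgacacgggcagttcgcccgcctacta
Bach1, chr16:87698804-87698953, plus strand: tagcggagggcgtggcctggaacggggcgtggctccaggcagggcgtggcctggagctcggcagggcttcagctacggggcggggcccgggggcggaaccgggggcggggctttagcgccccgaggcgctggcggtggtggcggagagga
Nqo1, chr8:107403206-107403355, minus strand: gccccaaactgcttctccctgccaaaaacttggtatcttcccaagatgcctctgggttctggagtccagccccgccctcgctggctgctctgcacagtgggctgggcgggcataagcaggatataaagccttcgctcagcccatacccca
A match is a run of letters and not a measured binding site, and no binding was measured in these libraries. Bases beyond the 250 before each start were not searched, so the lack of a match here does not show that a gene has no such element.

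**Figure D1:**
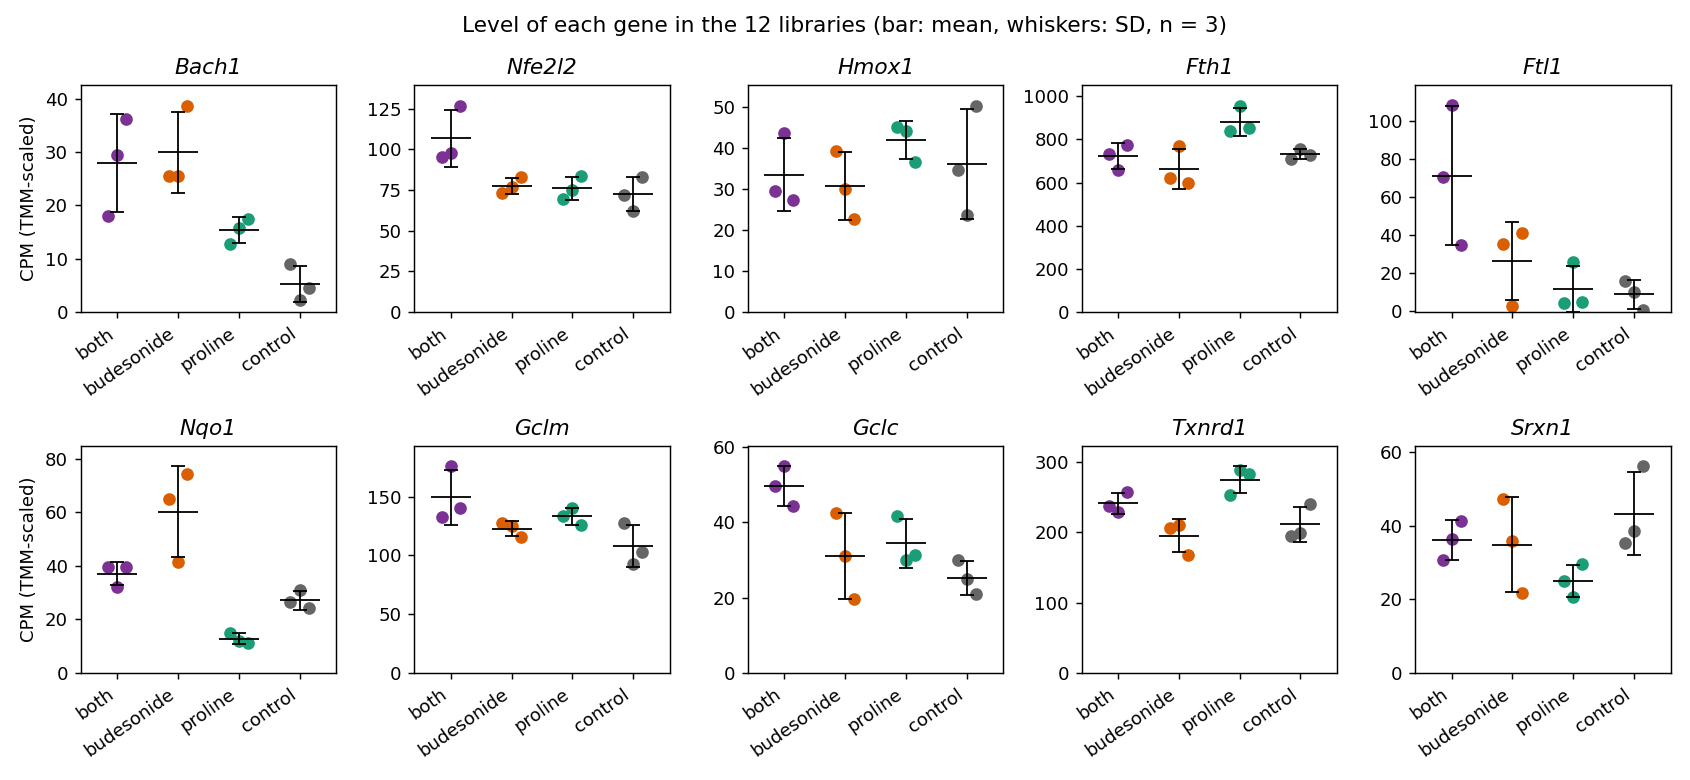
Level of each of the 10 genes, in TMM-scaled CPM on a linear axis, in the 12 libraries, with 1 panel per gene and the groups along the horizontal axis (points: libraries, replicates 1 to 3 from left to right; bar and whiskers: mean and SD, n = 3). Bach1, picked for its rise with budesonide, lies between 18.0 and 38.7 CPM in all 6 budesonide-treated libraries. In the other 6 it lies at 17.5 CPM or below. Nqo1 separates all 4 groups, and how many of all genes do so was not computed.

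Bach1, picked for its rise with budesonide, was higher in every library that had received budesonide than in every library that had not. It stood at 18.0, 29.5 and 36.3 CPM with both compounds, 25.6, 25.6 and 38.7 CPM with budesonide, 12.8, 15.8 and 17.5 CPM with proline, and 9.0, 2.31 and 4.47 CPM in control. The groups given both compounds and budesonide overlapped, the proline group lay below both of them, and control lay lowest with no overlap. The pooled counts behind these levels were 591 with both compounds, 686 with budesonide, 429 with proline and 96 in control, so the control level is the least well measured. The separation of Bach1 is given as a description. Of all tested genes, 11.5% lay higher with no overlap in budesonide against control and 16.3% in both compounds against proline. The share that separates all libraries with budesonide from all without was not computed.

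The log2 change of Bach1 with budesonide against control was 2.49 ± 0.38 (SE), or 5.63-fold. Bach1 was picked for its rise with budesonide, so this change is given with no test. It was 2.15 without control 3 and budesonide 3, 2.43 with offsets for transcript length and GC content, and 3.12 without control 1, the highest control library. Long transcripts as a class were slightly higher with budesonide: the median log2 change was 0.11 for genes whose longest transcript has 4 to 8 kb, the class of Bach1 with 5.87 kb, and −0.18 for genes up to 1 kb. The control libraries also enter the changes of 1.53 ± 0.38 with proline against control and 2.39 ± 0.38 with both compounds against control, which are therefore descriptions as well. The sum of 8 feeder fibroblast markers, though not each marker, also separated the libraries with budesonide from those without. It was 3.38 to 6.73 CPM with both compounds, 5.40 to 7.13 CPM with budesonide, 17.0 to 23.0 CPM with proline and 8.10 to 19.5 CPM in control. Thy1 gave most of the sum with proline and in control, with means of 1.21 CPM with both compounds, 2.44 CPM with budesonide, 11.9 CPM with proline and 8.12 CPM in control. Dcn averaged 0.489 CPM with both compounds, 0 CPM with budesonide, 5.69 CPM with proline and 1.03 CPM in control. Fbln2 ran the other way, at 1.33 CPM with both compounds, 1.63 CPM with budesonide, 0.893 CPM with proline and 0.709 CPM in control. Col1a1 was lowest with proline, at 1.64 CPM with both compounds, 2.07 CPM with budesonide, 0.293 CPM with proline and 2.72 CPM in control. Of these 8, 6 had counts with both compounds, 4 with budesonide, 5 with proline and 6 in control, and Postn and Lum were at 0 in every library. The highest Bach1 level, 38.7 CPM, was in the library with the highest Rn18s share, budesonide 3 with 6.70%. The part of the fibroblast markers and of Rn18s in the result was not tested.

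The comparison that shares no library with budesonide against control gave a smaller change. The genes were chosen with earlier results of these data known, so it is not an independent check. With both compounds against proline, Bach1 changed by 0.87 ± 0.35 on the log2 scale (95% interval 0.14 to 1.60), or 1.82-fold, and it was not called (adjusted p = 0.130, edgeR quasi-likelihood test over all genes). All 3 libraries of both compounds lay above the 3 of proline, by 18.0 against 17.5 CPM at the nearest. The adjusted p was 0.0394 in a fit of only these 6 libraries, within a range of 0.0394 to 0.405 over the alternatives. The budesonide effect in the presence of proline minus that in its absence was −1.63 ± 0.51 for Bach1, and −2.25 without control 1. It uses the control libraries and is not tested here.

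Nfe2l2 encodes Nrf2, the activator that competes with Bach1 for its elements. Its level was 95.3, 98.1 and 127 CPM with both compounds, 73.0, 77.0 and 83.0 CPM with budesonide, 69.7, 75.3 and 83.8 CPM with proline, and 72.0, 62.3 and 83.3 CPM in control. The libraries of both compounds lay above all 9 others, and the other 3 groups overlapped. Nfe2l2 rose with both compounds against control by 0.56 ± 0.16 on the log2 scale (adjusted p = 0.0354), but the call ended with offsets for length and GC content (0.0568) and without control 1 (0.0922), control 2 (0.168) or any 1 library of both compounds (0.0546, 0.0661 and 0.195 for libraries 1, 2 and 3), over a range of 0.0145 to 0.195. Against proline the change was 0.49 ± 0.16 with adjusted p = 0.0543, and it was called by DESeq2 (0.0364), with only the 6 libraries (0.0313) and without control 3 and budesonide 3 (0.0266), over a range of 0.0266 to 0.269. Budesonide alone left it within 0.10 ± 0.16 of control, with a 95% interval of −0.24 to 0.43.

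Hmox1, haem oxygenase 1, opens the haem ring and is the best known gene repressed by Bach1. It was called in none of the 6 comparisons, and all 4 groups overlapped in their levels. The libraries held 29.4, 43.7 and 27.3 CPM with both compounds, 39.1, 30.1 and 22.7 CPM with budesonide, 45, 44.1 and 36.5 CPM with proline, and 34.5, 23.5 and 50.3 CPM in control. The log2 change was −0.24 with budesonide against control (95% interval −0.80 to 0.32) and −0.32 with both compounds against proline (−0.88 to 0.23), and neither interval excludes 0. Across the 12 libraries, which differ in depth and treatment, its log2 CPM correlated with that of Bach1 at r = −0.10, given as a description.

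Ferritin stores the iron that haem breakdown releases, in shells of heavy chains from Fth1 and light chains from Ftl1. Fth1 held 733, 657 and 776 CPM with both compounds, 622, 769 and 597 CPM with budesonide, 838, 957 and 852 CPM with proline, and 710, 756 and 728 CPM in control. The proline libraries lay above those of every other group. No change was called: it was 0.27 ± 0.11 on the log2 scale with proline against control (adjusted p = 0.149), −0.29 ± 0.11 with both compounds against proline (0.0949) and −0.14 ± 0.11 with budesonide against control (0.522).

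Ftl1 had few and uneven counts, and its near-identical copy Ftl2-ps, a pseudogene, had more in every library. Ftl1 stood at 70.3, 108 and 34.9 CPM with both compounds, 35.4, 2.63 and 40.8 CPM with budesonide, 4.45, 25.8 and 4.86 CPM with proline, and 15.9, 10.2 and 0.771 CPM in control. It was called higher with both compounds, by 2.64 ± 0.74 against proline (adjusted p = 0.0237) and 3.00 ± 0.77 against control (adjusted p = 0.0175), both on the log2 scale. The libraries of both compounds lay above those of proline and control and overlapped with those of budesonide. The first call ended with DESeq2 (0.127) and without proline 1 (0.115), proline 3 (0.102) or library 1 or 2 of both compounds (0.0519 and 0.112), over a range of 3.11e-18 to 0.127. The second ended with DESeq2 (0.0673) and without control 3 (0.0523) or library 2 of both compounds (0.0874), over a range of 7.55e-22 to 0.0874.

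The share of Ftl1 in the summed counts of Ftl1, Ftl1-ps1, Ftl1-ps2 and Ftl2-ps ran from 1.91% in control 3 to 43.2% in budesonide 3, so the split between these symbols is uncertain. Summed over the 4 symbols, a step chosen after seeing the data, the level was 200.1, 263 and 204 CPM with both compounds, 123, 42.3 and 94.4 CPM with budesonide, 116, 140.5 and 78.6 CPM with proline, and 115, 106 and 40.4 CPM in control. The libraries of both compounds lay above all others, and the other 3 groups overlapped. As 1 row in the same test, the sum rose with both compounds against control by 1.35 ± 0.31 (adjusted p = 0.00824), against budesonide by 1.36 ± 0.31 (0.0278) and against proline by 0.99 ± 0.31 (0.0406). The pseudogene symbol Ftl2-ps by itself also rose with both compounds, by 0.98 ± 0.27 against control (0.0262) and 1.40 ± 0.27 against budesonide (0.00814). Against proline its change of 0.59 ± 0.26 was not called (0.176). With budesonide alone the sum changed by 0.00 ± 0.31 on the log2 scale (0.999), where Ftl1 by itself had shown 1.57 ± 0.75 (0.245). Ftl1 was called there with no low-count filter (6.30e-06), though its log2 change was nearly the same, 1.55, and its libraries overlapped.

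**Figure D2:**
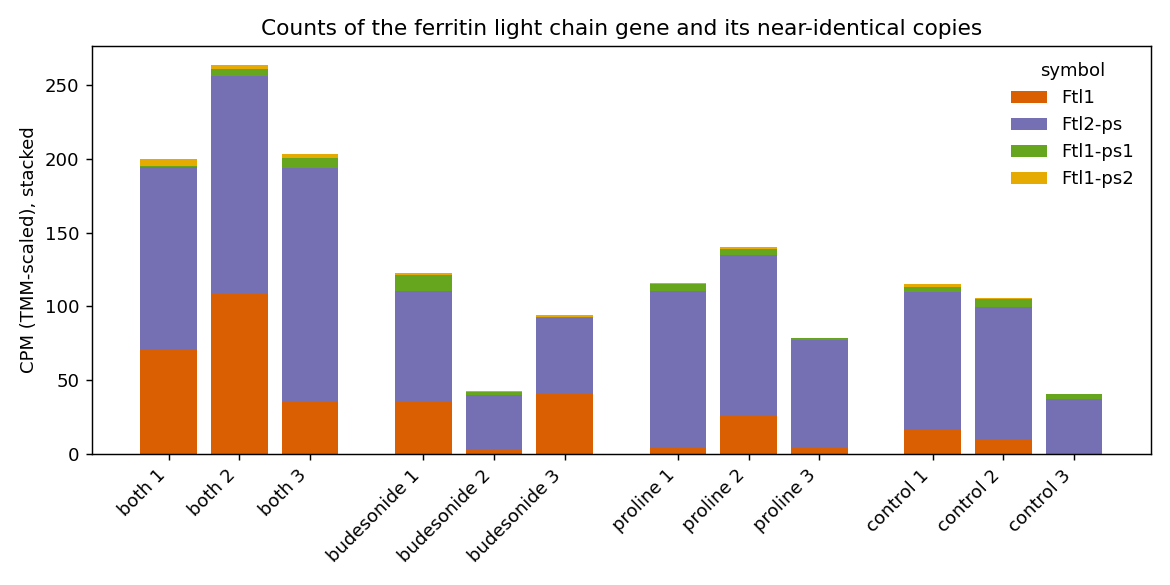
Stacked TMM-scaled CPM of Ftl1 and its copies Ftl2-ps, Ftl1-ps1 and Ftl1-ps2 in each of the 12 libraries, 1 bar per library, grouped by treatment. The bars of both compounds reach 200.1 to 263 CPM, those of the other 3 groups 40.4 to 140.5 CPM, and the share of Ftl1 varies between libraries of 1 group.

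Nqo1, a quinone reductase and a standard readout of Nrf2 activity, was called in 3 of the 6 comparisons, more than any other of the 9. It stood at 39.5, 32.0 and 39.5 CPM with both compounds, 64.8, 41.4 and 74.3 CPM with budesonide, 15, 11.8 and 11.1 CPM with proline, and 26.3, 31.0 and 24.1 CPM in control. No 2 groups overlapped, and the order was budesonide, both compounds, control and proline. The gaps were small between both compounds and control (32.0 and 31.0 CPM at their closest) and between budesonide and both compounds (41.4 and 39.5 CPM). How many of all tested genes separate all groups was not computed. In the single pairs compared, 19.4% to 31.9% of all genes did not overlap.

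Nqo1 rose with budesonide against control by 1.15 ± 0.24 on the log2 scale (adjusted p = 0.00408), or 2.22-fold, in 3 of 3 libraries. The call ended only without control 3 and budesonide 3 together, with 0.90 and adjusted p = 0.0600, over a range of 0.000185 to 0.0600. It rose with both compounds against proline by 1.54 ± 0.24 (adjusted p = 0.000180), or 2.90-fold, and it fell by 1.09 ± 0.24 with proline against control (adjusted p = 0.00577), in both cases past the threshold under each alternative run. With both compounds it lay below budesonide alone by −0.70 ± 0.23 (0.154) and above control by 0.45 ± 0.24 (0.307), and neither was called. Genes of 1 to 2 kb, the class of Nqo1 with 1.55 kb, had a median log2 change of −0.14 with budesonide and −0.11 with both compounds against proline.

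Gclm and Gclc encode the modifier and catalytic subunits of glutamate-cysteine ligase, the rate-limiting enzyme of glutathione synthesis. Gclm held 132, 176 and 140.1 CPM with both compounds, 127, 125 and 115 CPM with budesonide, 133, 139.9 and 126 CPM with proline, and 128, 92.7 and 103 CPM in control. Only the groups of both compounds and control, and of both compounds and budesonide, did not overlap. The change with both compounds against control was 0.47 ± 0.15 on the log2 scale (adjusted p = 0.0520), called by DESeq2 (0.0213) and without control 1 (0.0237), over a range of 0.0213 to 0.307.

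Gclc held 49.5, 54.8 and 44.4 CPM with both compounds, 42.5, 31.2 and 19.6 CPM with budesonide, 41.7, 30 and 31.3 CPM with proline, and 29.9, 24.9 and 21.0 CPM in control. The libraries of both compounds lay above all others, and proline lay just above control. Gclc rose with both compounds against control by 0.97 ± 0.26 (adjusted p = 0.0209), and the call ended without control 2 (0.0652), control 3 (0.0869), or library 1 or 2 of both compounds (0.0667 and 0.103), over a range of 0.00386 to 0.103. Budesonide alone gave 0.30 ± 0.26 (0.586) and proline alone 0.45 ± 0.26 (0.366).

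Txnrd1, the cytosolic thioredoxin reductase, and Srxn1, which repairs over-oxidised peroxiredoxins, had changes of opposite sign with proline, and neither was called. Txnrd1 held 238, 229 and 257 CPM with both compounds, 206, 211 and 168 CPM with budesonide, 253, 289 and 283 CPM with proline, and 196, 199 and 241 CPM in control. The proline libraries lay above control, by 0.38 ± 0.13 on the log2 scale (adjusted p = 0.0703), which was called by DESeq2 (0.0368), without control 3 (0.0276) and without control 3 and budesonide 3 (0.0132), over a range of 0.0132 to 0.233. Srxn1 held 30.6, 36.3 and 41.4 CPM with both compounds, 47.3, 35.8 and 21.6 CPM with budesonide, 24.9, 20.7 and 29.5 CPM with proline, and 35.2, 38.5 and 56.1 CPM in control. The proline libraries lay below control and below both compounds. The change with proline against control was −0.79 ± 0.27 (0.0731), called when every gene was kept (0.0365) and under the offsets (0.0472), within 0.0365 to 0.310 overall. With both compounds against proline it was 0.53 ± 0.27 (0.238).

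Of the 9 genes other than Bach1, Nqo1 alone rose with budesonide against control, none fell and 8 were not called, where 6.51% of all tested genes were called and 2.51% rose. None was called without control 3 and budesonide 3, and 2 were called with no low-count filter, Nqo1 and Ftl1. The median log2 change of the 9 was 0.10, against 0.01 over all tested genes, and 1 of the 9 had libraries that did not overlap, where 23.7% of all genes did.

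Nqo1 and Ftl1, 2 of the 9, rose with both compounds against proline and 7 were not called, where 5.83% of all genes rose and 4.27% fell. The split of all calls was 808 higher and 591 lower, or 541 higher and 617 lower with length and GC offsets. The median log2 change of the 9 was 0.49 against 0.02 over all genes. Of the 9, 5 lay above proline with no overlap and 1 below it, where 16.3% of all genes lay above and 15.6% below, 31.9% in all. Leaving out proline 1, proline 3, or library 1 or 2 of both compounds left 1 call, and 3 were called without control 3 and budesonide 3 together. This comparison shares no library with budesonide against control.

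With proline against control, Nqo1 alone of the 9 was called, as lower, where 3.17% of all genes rose and 4.71% fell. Of the 9, 3 lay above control with no overlap (Fth1, Gclc and Txnrd1) and 2 below it (Nqo1 and Srxn1), where 12.7% of all genes lay above and 14.0% below, 26.7% in all. The median log2 change was 0.27, against −0.01 over all genes.

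With both compounds against control, Nfe2l2, Ftl1 and Gclc rose, none of the 9 fell and 6 were not called, where 3.34% of all genes rose and 3.83% fell, 7.17% in all. The 3 calls became 1 without control 2, control 3 or library 1 of both compounds, and 0 without its library 2. Of the 9, 5 lay above control with no overlap and none below, where 14.4% of all genes lay above and 14.0% below, 28.4% in all. Against budesonide, edgeR called none of the 9 with both compounds and DESeq2 none, 4 had an unadjusted p below 0.05, and 1.47% of all genes were called. Ftl1 alone was called with no low-count filter (1.43, adjusted p = 3.46e-05), at nearly the same log2 change as with the filter and with overlapping libraries. With both compounds, 4 of the 9 lay above budesonide with no overlap and 1 below, where 10.2% of all genes lay above and 9.23% below. For the interaction, edgeR called none of the 9 and DESeq2 none, Srxn1 alone had an unadjusted p below 0.05 (0.84 ± 0.37, adjusted p = 0.523), and 0.469% of all genes were called, 0.411% as higher and 0.0578% as lower. All interaction calls split into 57 higher and 8 lower, or 23 and 9 with length and GC offsets.

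**Figure D3:**
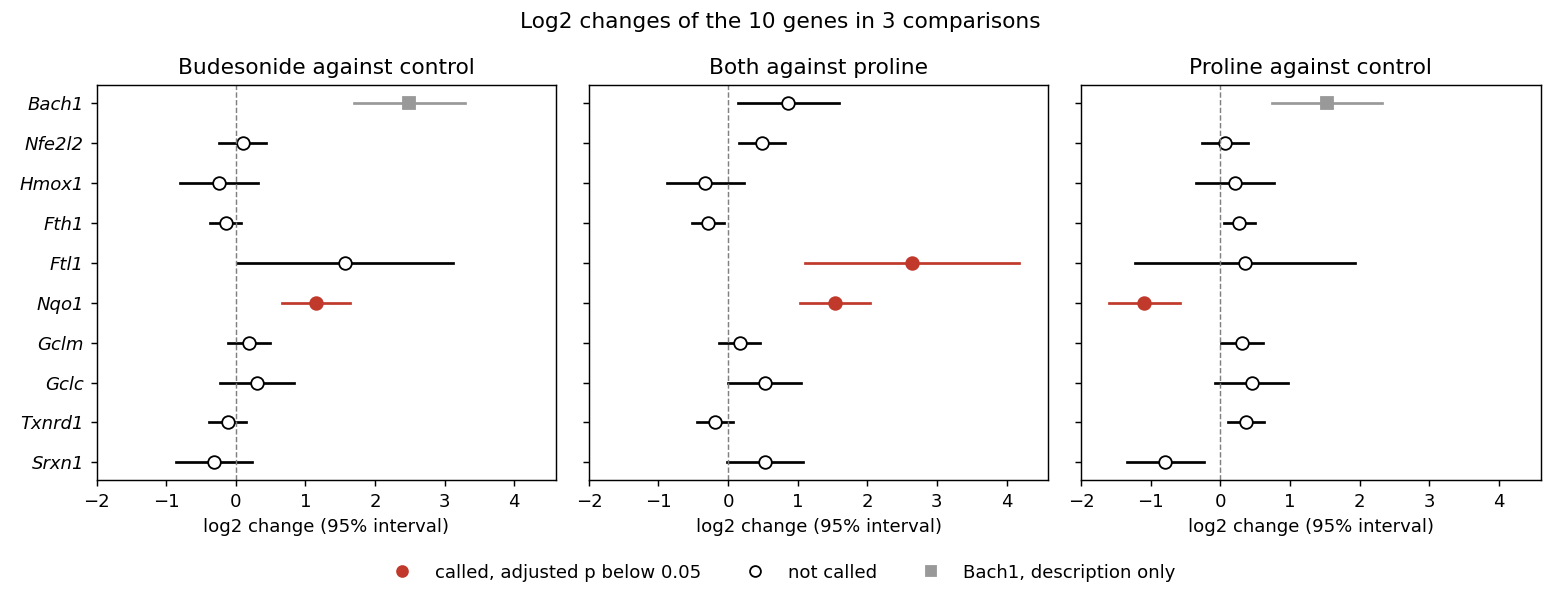
Log2 change with its 95% interval for each of the 10 genes in 3 comparisons (rows: genes; filled red: adjusted p below 0.05; open: not called; grey squares: Bach1 in budesonide against control and in the comparison that shares control libraries with it, given as a description). Nqo1 is called in all 3 panels, at 1.15, 1.54 and −1.09, and the Hmox1 intervals cover 0 in each.

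The partners and regulators of Bach1 and Nrf2 gave a few calls, in a list of 14 of which 12 were tested. With budesonide against control 1 fell and 11 were not called (median 0.16), near the 6.51% of all genes called. It was Fbxo22, a ubiquitin ligase subunit known in mouse and human to target Bach1 for breakdown, at 5.23 ± 2.27 CPM with budesonide and 15.7 ± 2.61 CPM in control (SD, n = 3 each), a log2 change of −1.58 ± 0.40 (adjusted p = 0.0172). The call ended without control 1 (0.0633), control 3 (0.0561) or budesonide 2 (0.0756) and with only the 6 libraries (0.0604), over a range of 0.00259 to 0.0756.

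With both compounds against proline 2 of the 12 rose (median 0.30), where 10.1% of all genes were called. Sqstm1, the autophagy receptor p62 that binds Keap1, averaged 198 ± 6.74 CPM with both compounds and 109 ± 7.73 CPM with proline (log2 0.85 ± 0.13, adjusted p = 8.27e-05). Mafg, a small Maf partner of both factors, averaged 117 ± 15.3 CPM with both compounds and 77.7 ± 10.1 CPM with proline (0.60 ± 0.17, adjusted p = 0.0222), a call that ended with offsets (0.0671) and without proline 1 (0.0580), proline 2 (0.119), or library 1 or 2 of both compounds (0.0737 and 0.137). Against control, both compounds gave 0.74 ± 0.13 for Sqstm1 (adjusted p = 0.000674) and 0.84 ± 0.17 for Mafg (adjusted p = 0.00273), each called under all alternatives run. Keap1 fell to 23.1 ± 6.45 CPM with proline, against 42.4 ± 9.39 CPM in control (−0.87 ± 0.25, adjusted p = 0.0285), and that call ended without control 1 (0.0556), control 3 (0.142), proline 3 (0.168) or control 3 and budesonide 3 together (0.105).

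Of 21 listed genes that make, break down or carry haem, 18 were tested, and with budesonide against control edgeR called none, with 4 at an unadjusted p below 0.05 and 1 called by DESeq2 (median 0.01), where edgeR called 6.51% of all genes. In both compounds against proline 1 rose and 17 were not called, where 10.1% of all genes were. It was the haem-binding protein Hebp1, at 21.6 ± 3.25 CPM with both compounds and 9.31 ± 2.51 CPM with proline (1.22 ± 0.32, adjusted p = 0.0166), and the call ended without proline 1 (0.0925), proline 3 (0.0657) or library 1 of both compounds (0.0850). With proline against control edgeR called none of the 18, where it called 7.88% of all genes. Of the 18, 2 had an unadjusted p below 0.05 and 1 was called by DESeq2.

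Among 15 genes of iron uptake, release and sensing, Ireb2 changed in 3 comparisons. Ireb2 encodes the iron regulatory protein IRP2, which blocks ferritin translation when iron is scarce. It averaged 136 ± 14.7 CPM with both compounds, 169 ± 20.1 CPM with budesonide, 75.2 ± 8.15 CPM with proline and 118 ± 9.95 CPM in control (SD, n = 3 each). The log2 change was 0.52 ± 0.14 with budesonide against control (adjusted p = 0.0284), 0.85 ± 0.14 with both compounds against proline (adjusted p = 0.000329) and −0.66 ± 0.14 with proline against control (adjusted p = 0.00457). With length and GC offsets the budesonide and proline calls ended (0.294 and 0.135). The budesonide call also ended without control 2 (0.0945), control 3 (0.0930), budesonide 1 (0.0782), budesonide 3 (0.116) or control 3 and budesonide 3 together (0.205), and with only the 6 libraries (0.0674). Pcbp1, an iron chaperone that loads ferritin, rose with proline to 835 ± 18.9 CPM, against 536 ± 142 CPM in control (0.64 ± 0.14, adjusted p = 0.00366). No other gene of the 15 was called in these 3 comparisons, where 6.51%, 10.1% and 7.88% of all genes were called with budesonide against control, both compounds against proline and proline against control.

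Of 20 glutathione genes, 1 rose and 2 fell with budesonide against control, and 2 rose and 3 fell with both compounds against proline, where 6.51% and 10.1% of all genes were called. Slc3a2, the heavy chain shared by several amino acid exchangers including the cystine carrier, rose in both, to 527 ± 59.5 CPM with budesonide against 316 ± 37.5 CPM in control (0.74 ± 0.15, adjusted p = 0.00362) and to 544 ± 78.4 CPM with both compounds against 301 ± 69.9 CPM with proline (0.85 ± 0.15, adjusted p = 0.000544). The secreted peroxidase Gpx3 fell in both, to 13 ± 2.05 CPM with budesonide against 27.8 ± 4.57 CPM in control (adjusted p = 0.0274), a call that ended under 6 of the alternatives (range 0.00761 to 0.128), among them without control 3 and budesonide 3 (0.107), and by 1.52 ± 0.31 on the log2 scale with both compounds against proline (adjusted p = 0.00214). Gsto1 also fell with budesonide against control (−0.78 ± 0.21), and Ggct (−0.92 ± 0.23) and the glutathione-degrading enzyme Chac1 (−1.91 ± 0.39) fell, and the exporter Abcc4 rose (0.60 ± 0.19), with both compounds against proline. The calls of Gsto1 (adjusted p = 0.0236), Ggct (0.0122) and Abcc4 (0.0439) ended under 6, 3 and 8 of 13 alternatives, and that of Chac1 (0.00234) under none. The cystine carrier chain itself, Slc7a11, averaged at most 3.11 CPM in any group. With proline against control edgeR called none of the 20, where it called 7.88% of all genes. Of the 20, 2 had an unadjusted p below 0.05 and 1 was called by DESeq2.

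Of 17 thioredoxin and peroxide genes, 3 rose and 1 fell with proline against control, where 3.17% of all genes rose and 4.71% fell. The 3 were peroxiredoxins: Prdx2 averaged 334 ± 12.6 CPM with proline and 193 ± 33.8 CPM in control (0.79 ± 0.14, adjusted p = 0.000474), and Prdx3 and Prdx6 had log2 changes of 0.87 ± 0.21 and 0.36 ± 0.10. The Prdx6 call ended under 9 of 13 alternatives (range 0.00319 to 0.147) and the Prdx3 call without control 2 (0.0521) or proline 2 (0.0665). Prdx1, at 0.35 ± 0.12, was not called (0.0697). Sod2, the mitochondrial superoxide dismutase, fell by 0.62 ± 0.12 with proline (adjusted p = 0.00142) and rose by 0.69 ± 0.12 with both compounds against proline (adjusted p = 0.000439). Catalase (Cat) rose as well with both compounds against proline (0.68 ± 0.21), while Prdx2 (−0.50 ± 0.13) and the mitochondrial thioredoxin Txn2 (−0.48 ± 0.13) fell. In that comparison 2 of the 17 rose and 2 fell, where 5.83% of all genes rose and 4.27% fell. The calls of Cat (adjusted p = 0.0377), Prdx2 (0.0189) and Txn2 (0.0192) ended under 8, 5 and 4 of 13 alternatives. With budesonide against control 2 of the 17 fell, Txn2 and Prdx2, by 0.46 ± 0.13 and 0.46 ± 0.14, and neither was called without control 3 and budesonide 3 or with length and GC offsets.

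Of 9 genes that supply NADPH, the electron source of these enzymes, 2 rose and 1 fell with budesonide against control, and 2 rose with both compounds against proline, where 6.51% and 10.1% of all genes were called. Mitochondrial isocitrate dehydrogenase Idh2 averaged 107 ± 7.82 CPM with both compounds, 109 ± 5.81 CPM with budesonide, 46.4 ± 4.58 CPM with proline and 71.9 ± 3.95 CPM in control (SD, n = 3 each). It rose by 0.60 ± 0.15 with budesonide against control (adjusted p = 0.0133), rose by 1.21 ± 0.15 with both compounds against proline (adjusted p = 7.09e-06) and fell by 0.63 ± 0.15 with proline against control (adjusted p = 0.00764), and the first of these calls ended without control 1 (0.0528), budesonide 3 (0.0518) and control 3 with budesonide 3 (0.0920). The cytosolic form Idh1 rose by 0.58 ± 0.18 and by 0.70 ± 0.18 in the 2 budesonide comparisons (adjusted p = 0.0492 and 0.0115), and the first call ended under 8 of 13 alternatives (range 0.0211 to 0.163), among them without control 3 and budesonide 3 (0.0743). G6pdx, the entry enzyme of the pentose phosphate pathway, averaged 57.1 ± 21.8 CPM with both compounds, 23.0 ± 7.89 CPM with budesonide, 66.4 ± 13.4 CPM with proline and 43.5 ± 5.48 CPM in control, with a fall of 0.93 ± 0.26 with budesonide against control (adjusted p = 0.0343) that ended under 7 of the alternatives (range 0.00155 to 0.151), among them without control 3 and budesonide 3 (0.126).

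The comparisons of both compounds with control and with budesonide added few further names. Against control, Gpx4 (adjusted p = 0.00349), Prdx1 (0.44 ± 0.12) and Txn1 (0.57 ± 0.15) rose beside Slc3a2, Idh2, Sqstm1 and Mafg, and Gpx3, Chac1 and Gsto1 fell. The calls of Prdx1 (0.0524) and Txn1 (0.0844) ended without control 3 and budesonide 3. Against budesonide, Gpx4 (1.40 ± 0.31), Prdx2 (0.75 ± 0.14), Prdx6 (0.60 ± 0.10) and G6pdx (1.32 ± 0.26) rose and none fell. Gpx4, which removes lipid peroxides, averaged 75.4 ± 7.88 CPM with both compounds, 28.6 ± 6.28 CPM with budesonide, 51.6 ± 11.4 CPM with proline and 26.8 ± 14.5 CPM in control. Of all tested genes, edgeR called 6.51% with budesonide against control, 10.1% with both compounds against proline and 7.88% with proline against control. It called 1.47% with both compounds against budesonide and 7.17% with both compounds against control. Over the 5 pairwise comparisons the lists gave 47 calls, of which 19 held under every alternative run, a share not computed for all genes. These were Slc3a2 with budesonide against control, and Chac1, Gpx3, Idh2, Ireb2, Slc3a2, Sod2 and Sqstm1 with both compounds against proline. They were also Idh2, Pcbp1, Prdx2 and Sod2 with proline against control, Prdx2 with both compounds against budesonide, and Chac1, Gpx3, Gpx4, Mafg, Slc3a2 and Sqstm1 with both compounds against control.

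**Figure D4:**
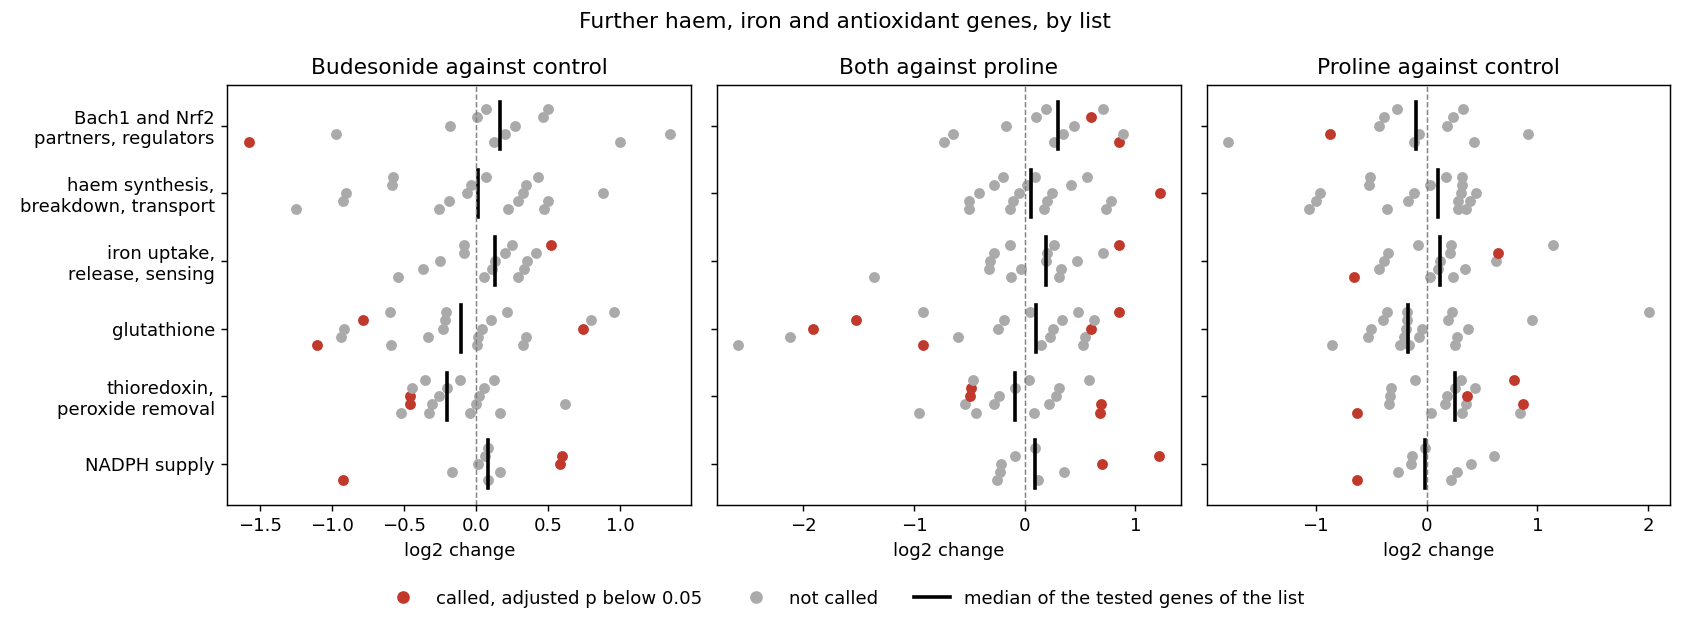
Log2 change of each tested gene of 6 lists in 3 comparisons (points: genes, spread vertically for legibility; red: adjusted p below 0.05; grey: not called; black bar: median of the list). List medians lie between −0.20 and 0.30 in all 3 panels, and single genes carry the calls, such as Idh2 at 0.60, 1.21 and −0.63.

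The genes whose levels followed Bach1 most closely were found by Pearson correlation of log2 CPM over the 12 libraries, which share treatments and differ in depth. The 8 highest were Nlgn2 (r = 0.93), Zfp931 (0.92), Ncoa2 (0.91), Supt20 (0.90), Tuft1 (0.90), Ror1 (0.88), Tbc1d9 (0.87) and Eif3f (0.87), given as a description. Ncoa2, a coactivator of nuclear receptors that include the glucocorticoid receptor, averaged 12.8 ± 3.28 CPM with both compounds, 12.1 ± 1.60 CPM with budesonide, 7.56 ± 0.632 CPM with proline and 5.37 ± 1.91 CPM in control. Eif3f, a subunit of a translation initiation factor, averaged 381 ± 14.8 CPM with both compounds, 379 ± 29.0 CPM with budesonide, 366 ± 23.8 CPM with proline and 286 ± 8.87 CPM in control. None of the 9 other genes was among these 8. Of 13851 ranked genes, Gclm had r = 0.70 and rank 295, Nfe2l2 0.59 and rank 801, and Ftl1 0.52 and rank 1238. Gclc had 0.44 (rank 1957), Nqo1 0.35 (2766), Txnrd1 0.01 (6564), Hmox1 −0.10 (8018), Fth1 −0.24 (9738) and Srxn1 −0.31 (10466).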

How the data were processed

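The authors deposited whole-number counts per gene symbol for 12 libraries; per the labels' protocols the kit reads 3′ ends of polyadenylated RNA. The authors also deposited these counts as a normalised signal, scaled by 1 size factor per library, which was checked but not used. GRCm39, STAR 2.7.5c, cutadapt 2.5, featureCounts 2.0, bcl2fastq and DESeq2 are named, with no role or order, per the submitters' processing notes. Not given in the sources used here are how multi-mapping reads were treated, whether strand was used and which annotation served.

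Counts were filtered with filterByExpr (minimum count 10, minimum total 15), scaled by TMM and tested with edgeR 4.0.16 in R 4.3.3. The two-sided quasi-likelihood F test had 1 coefficient per group over all 12 libraries, with 8 residual degrees of freedom. Adjustment was by Benjamini-Hochberg across the 13852 tested genes, and "rose", "fell" and "called" mean an adjusted p below 0.05. Log2 changes used a prior count of 0.125, with an SE of the change's size divided by the root of F. Levels are CPM scaled by TMM, as mean ± SD over n = 3 libraries. Transcript length and GC content came from the longest GENCODE M21 transcript of each symbol, found for 97.7% of tested genes. The script was tested on simulated counts.

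The members, the 6 further lists and the rule for named genes (all members, every called gene of the lists, the 8 genes most correlated with Bach1) were chosen with earlier results of these data known. Alternatives were DESeq2 1.42.0, RLE scaling, no filter, only the groups compared, the replicate number as a block, length and GC offsets, and leaving out libraries.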

Additional observations from a re-analysis of the deposited data

How the results depend on the processing

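No value of the 10 genes or of the named list genes changed direction while called under any alternative. Counts of genes called over the whole table moved by over 1.5 times as follows; the cause was not tested beyond the fewer samples or genes that an alternative holds. Budesonide against control called 902 genes, 575 without control 3 and budesonide 3 together and 493 with only the groups compared. Both compounds against budesonide called 203, and 354 with no low-count filter, 128 with the replicate block, 118 with transcript length and GC offsets, 120 with only the groups compared and 452 with DESeq2. The interaction called 65, and 134 with no low-count filter, 32 with offsets and 158 with DESeq2. Leaving out 1 library moved some counts by over 1.5 times and others by less. It gave 836 to 1095 calls for both compounds against proline (1399 with all) and 674 to 887 for proline against control (1091). It gave 80 to 171 for both compounds against budesonide (203) and 535 to 789 for both compounds against control (993). The 620 to 809 calls for budesonide against control stayed within 1.5 times of 902. Replicate numbers did not pair the samples: the deviations of same-numbered libraries correlated at −0.08 to 0.05 in 18 pairs, and the replicate block changed no other count by over 1.5 times. Fits of only the groups compared were not run for the interaction, which needs all 4 groups. Depth limits Bach1 most in control, where 96 counts in 3 libraries carry its level, and Ftl1 most in control 3, with 5 counts.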
